A study of Mus musculus with 6 samples.

Results

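Forkhead (Fox) genes encode transcription factors that share the forkhead, or winged helix, DNA-binding domain. The members described here are the protein-coding genes on mouse chromosomes 1 to 19 whose symbol is Fox, 1 letter and a number, as in Foxc1, Foxd3 or Foxp1. The rule gave 41 genes of the 20560 protein-coding genes used, and it rests on the symbol alone. CHD7, a chromatin remodelling ATPase, and H3K27ac, acetylated lysine 27 of histone 3, which marks active promoters and enhancers, were mapped by chromatin immunoprecipitation with sequencing (ChIP-seq) in mouse cardiac neural crest cells. There were 2 CHD7 libraries, 2 H3K27ac libraries and 2 libraries of input chromatin, which had no antibody step. All 6 came from embryos at E10.5 (embryonic day) that carried the Wnt1-Cre2 driver and the mTmG reporter, with no treatment or mutant group. Wnt1-Cre2 drives recombination from the Wnt1 promoter, which is active in the dorsal neural tube and the premigratory crest, and recombined cells and their descendants carry green fluorescent protein. Such cells of pharyngeal arches 3 to 6 were collected by fluorescence-activated sorting. Whether the paired libraries stem from different litters or different sorts is not stated in the labels, so their spread may be technical.

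Forkhead factors fall into subfamilies named by letter. Foxd3 is a specifier of the early neural crest, and Foxc1 and Foxc2 act together in the arch and outflow tract mesenchyme. Foxf and Foxl genes respond to hedgehog signals in mesenchyme. Foxa factors open chromatin in endoderm. Foxo factors are phosphorylated and kept out of the nucleus downstream of insulin signalling, and Foxm1 drives mitotic genes.

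The CHD7 lists held 31425 and 26600 peaks on chromosomes 1 to 19, the H3K27ac lists 23786 and 22244, and the input lists 417 and 475. A region was counted only where both libraries of an antibody had an overlapping peak, which gave 19712 CHD7 and 17404 H3K27ac regions. Fold is the authors' enrichment per peak in 1 list. Percentiles of a library are within its own list. Means, SDs and ranks of regions and genes join the folds of both libraries of an antibody. No read counts were given, so depth is unknown. Gene positions are those of RefSeq on mm10 (GRCm38.p6), and a gene end is either annotated limit of a gene, its start or its finish. The marker lists below were chosen with earlier results of these data known. Of 14 listed markers of neural crest and its mesenchyme, 3 had CHD7 at a gene end (Ets1, Snai2 and Sox9) and 3 had H3K27ac (Twist1, Msx2 and Sox9). Sox10, Tfap2a, Tfap2b, Prrx1, Foxd3, Msx1, Pdgfra, Dlx5 and Hand2 had neither. Over all protein-coding genes 46.2% had CHD7 at a gene end, 49.3% H3K27ac and 41.2% both, so the crest markers lay below these shares. Of 5 cardiomyocyte and 3 skeletal muscle markers, 0 had either mark. Kdr was the 1 of 5 endothelial markers with CHD7, and 0 of them had H3K27ac. Both marks stood at 2 of 3 blood markers and 2 of 5 neuron markers, and of 5 markers of epithelium and endoderm 1 had CHD7 and 1 H3K27ac. These peaks alone did not set the crest label apart from other cell types, and the share of other cells in the sort was not tested.

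As a family, Fox genes carried CHD7 and H3K27ac at their ends about as often as other genes. CHD7 lay within 1 kb of an end of 20 of 41 Fox genes (48.8%), against 46.2% of all protein-coding genes. H3K27ac lay there at 20 Fox genes (48.8%), against 49.3%. Both stood at 15 (36.6%), against 41.2%. The regions of both marks overlapped at 14 of the 41 (34.1%), against 39.6% of all genes. Neither mark stood at 16 of the 41 (39.0%), against 45.6% of all genes. Only CHD7 stood at 5 and only H3K27ac at 5, against 1041 and 1674 of all 20560 genes. The shares with CHD7, with H3K27ac and with both lie near the background, so these counts over the whole family are no result about it. The counts with 1 mark alone rest on 5 genes each and were not tested. The comparison moved with how a gene was matched to a region. Within 1 kb of a listed transcription start, which 26 Fox genes have, 9 had CHD7 (34.6%), 10 had H3K27ac (38.5%) and 7 had both (26.9%), against 47.6%, 51.5% and 43.0% of all genes with a listed start. Among regions near no other gene's end, a setting added after the data were seen, 16 Fox genes had CHD7 (39.0%), 13 had H3K27ac (31.7%) and 10 had both (24.4%), against 27.9%, 29.7% and 23.5% of all genes.

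Within the family the marks differed between groups made by the role of the gene. All 13 members placed in a broad group, of growth, cell cycle and metabolism (Foxj2, Foxj3, Foxk1, Foxk2, Foxm1, Foxn2, Foxn3, Foxo1, Foxo3, Foxo6, Foxp1, Foxp2 and Foxp4) had both marks, and at 12 of them the regions overlapped. Among 11 members placed in a crest, arch and outflow mesenchyme group, 3 had CHD7, 4 had H3K27ac and 1, Foxc2, had both. Of 10 genes of endoderm, ectoderm and placode, 3 had CHD7, 1 had H3K27ac and 0 had both, and 0 of 4 neural genes had either mark. Among 3 genes of cilia, gastrulation and the germ line, 1 had CHD7 (Foxj1) and 2 had H3K27ac (Foxj1 and Foxh1). The role groups are coarse and were made with earlier results of these data known. In the broad group, Foxo6 and Foxp2 are restricted in adult tissue, and Foxj3, Foxk1, Foxp1 and Foxp4 are also known from particular tissues. In the crest group, Foxq1 is better known from epithelium and Foxd1 from kidney stroma. Among regions near no other gene's end, 9 of the 13 broad members had both marks, and within 1 kb of a listed start 7 of the 8 broad members with such a start did. The division also rests partly on weak peaks. With only the 10000 peaks of lowest q in each library, 4 Fox genes had CHD7, 10 had H3K27ac and 3 had both, against 21.5%, 33.3% and 17.5% of all genes; 3 and 9 of these with CHD7 and with H3K27ac were in the broad group and 0 in the crest group. With peaks of −log10 q of at least 10, Foxp4 was the 1 gene with CHD7 and with both, against 11.2% and 9.03% of all genes, and 10 had H3K27ac, against 29.6%.

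**Figure D1:**
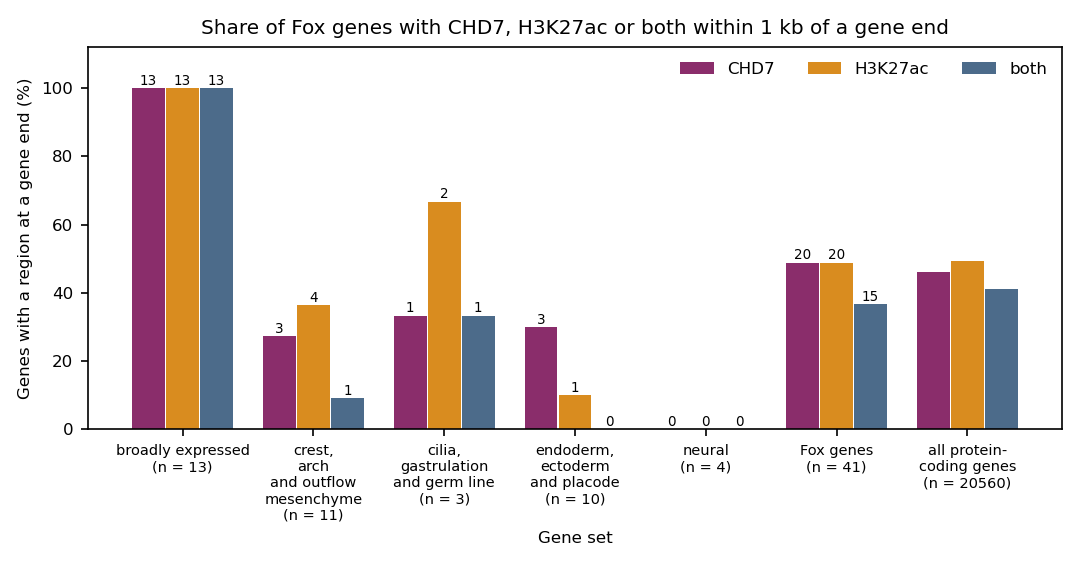
Share of genes (percent) with a CHD7 region, an H3K27ac region or both within 1 kb of a gene end, for 5 role groups of Fox genes, all 41 Fox genes and all 20560 protein-coding genes; the digits on the bars are gene counts. All 13 members of the group labelled broadly expressed had both marks, whereas the neural group had 0. The groups are coarse and were made with earlier results of these data known, and expression was not measured.

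Gene length moved with this division. The broad members had a median length of 60.5 kb, against 2.73 kb for the crest group and 4.04 kb for the endoderm, ectoderm and placode group. In a split at 20 kb chosen after the data were seen, 12 of 14 longer Fox genes had CHD7, H3K27ac and both, against 55.1%, 58.5% and 49.3% of all genes of that length, and the other two were Foxn4 and Foxn1. Of 27 shorter Fox genes, 8 had CHD7 and 8 had H3K27ac, against 38.5% and 41.3% of all shorter genes, and 3 had both, against 34.1%. Role and length largely go together in these 41 genes. Where they differ, Foxm1, a broad member of 12.9 kb, had both marks. Foxn1 (29.2 kb) and Foxn4 (20.3 kb), outside the broad group, had neither. These genes are too few to tell role and length apart, and this was not tested. By the same rules 7 of 18 Sox genes had CHD7, 8 had H3K27ac and 6 had both, and of 12 T-box genes 3, 5 and 1 did.

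**Figure D2:**
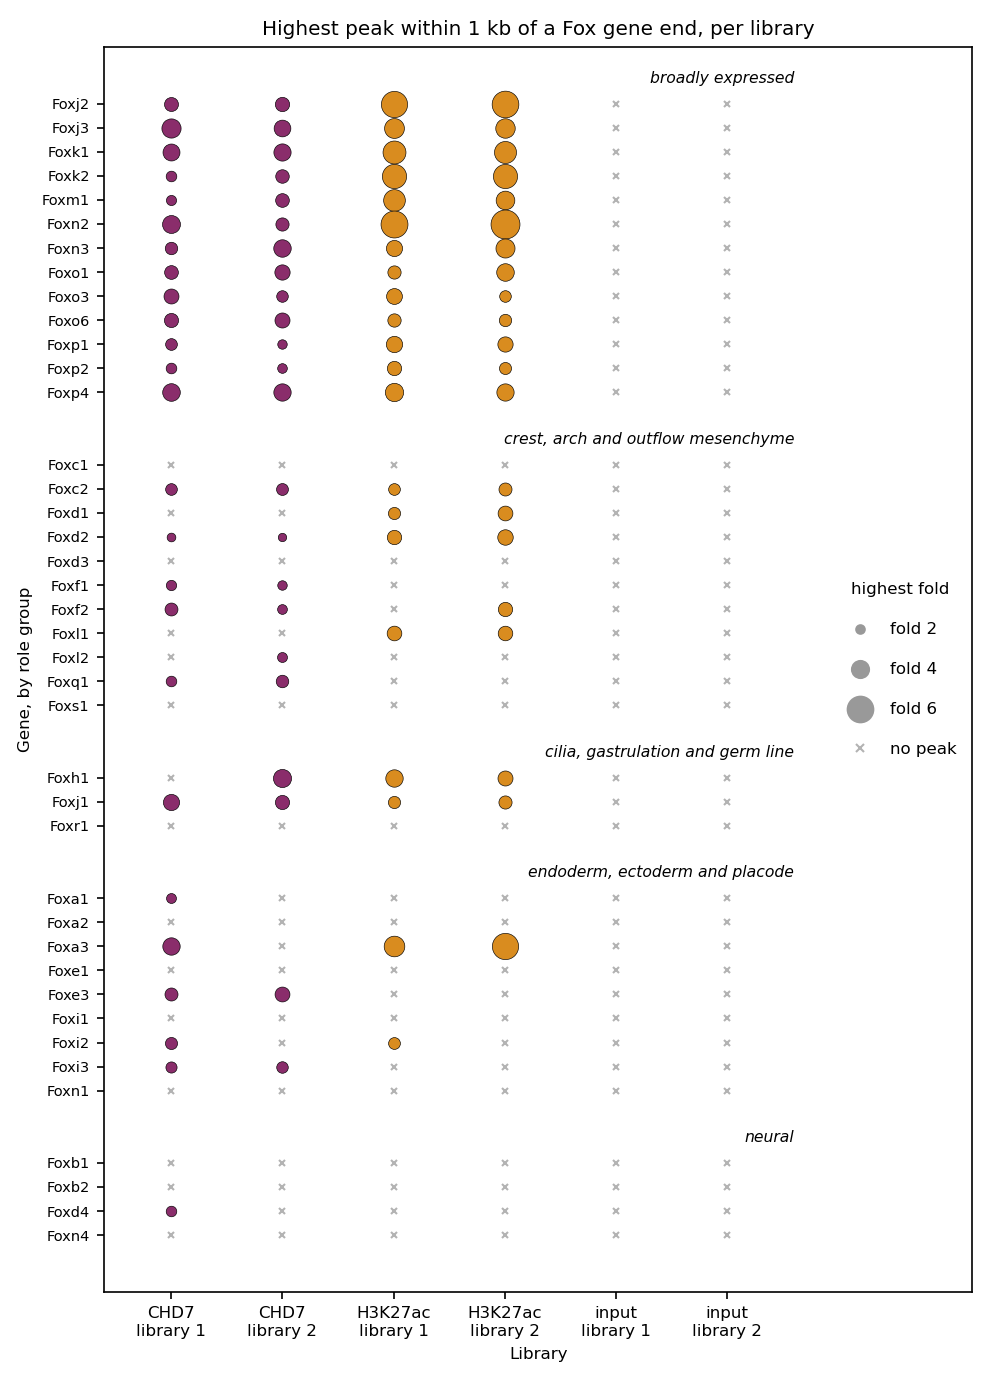
Highest fold of a peak within 1 kb of a gene end (circle area grows with fold) for 40 of the 41 Fox genes in each of the 6 libraries, with a cross where no peak was listed. The broad group had a peak in all 4 ChIP libraries and no Fox gene had one in input; for Foxa1 the peak of CHD7 library 2 lies just past 1 kb, although the joined region reaches 997 bp.

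Library by library, 26 and 23 Fox genes had a CHD7 peak at an end (63.4% and 56.1%), against 53.2% and 51.3% of all genes. H3K27ac peaks stood at 21 and 21 (51.2% in both), against 52.9% and 51.4% of all genes. Input peaks stood at 0 and 0 Fox genes, against 0.0632% and 0.136% of all genes. No input peak within 100 kb had a Fox gene as its nearest gene.

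The highest CHD7 fold at a Fox gene end was that of Foxj3, a forkhead factor of germ cells and muscle. Its region at chr4:119540063-119540680, 402 bp inside the 5′ end, had a CHD7 fold of 4.50 and 3.92 in libraries 1 and 2 (mean 4.21 ± 0.409, SD, n = 2). A second CHD7 region of Foxj3, at chr4:119538922-119539731 across the start, had 3.09 and 3.68. One H3K27ac region of 1887 bp covered both (4.64 and 4.56, mean 4.60 ± 0.0622), and it also lies within 1 kb of an end of Frg2f1. The CHD7 regions of Foxj3 thus sat at and inside its start under a single acetylated stretch. Foxp4, a corepressor-binding factor of lung and gut, had its higher CHD7 region outside the gene at chr17:47924733-47925337 (4.13 and 4.06, mean 4.09 ± 0.0466), and no H3K27ac region overlapped it. The lower one, inside the gene at chr17:47924046-47924561 (2.79 and 2.74), overlapped H3K27ac at chr17:47923731-47924690 (4.30 and 4.04, mean 4.17 ± 0.179). The CHD7 and H3K27ac folds of Foxp4 were each alike between libraries, and the lncRNA Gm46601 has an end within 1 kb of these regions. The promoters of Foxj3 and Foxp4 show where these regions fall. They run from 250 bases before to 50 after the RefSeq start (mm10, GRCm38.p6), 5′ to 3′ on the strand of the gene, and capitals mark the bases under a CHD7 region found in both libraries. Foxj3 lies at chr4:119539411-119539710 on the plus strand and Foxp4 at chr17:47924583-47924882 on the minus strand.
Foxj3: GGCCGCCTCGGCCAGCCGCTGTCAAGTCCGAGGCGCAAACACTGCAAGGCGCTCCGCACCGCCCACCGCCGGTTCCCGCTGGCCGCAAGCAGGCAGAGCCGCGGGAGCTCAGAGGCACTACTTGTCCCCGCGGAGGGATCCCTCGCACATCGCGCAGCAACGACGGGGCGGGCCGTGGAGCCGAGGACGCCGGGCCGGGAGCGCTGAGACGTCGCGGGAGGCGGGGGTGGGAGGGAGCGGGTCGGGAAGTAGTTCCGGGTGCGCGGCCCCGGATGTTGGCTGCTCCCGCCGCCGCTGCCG
Foxp4: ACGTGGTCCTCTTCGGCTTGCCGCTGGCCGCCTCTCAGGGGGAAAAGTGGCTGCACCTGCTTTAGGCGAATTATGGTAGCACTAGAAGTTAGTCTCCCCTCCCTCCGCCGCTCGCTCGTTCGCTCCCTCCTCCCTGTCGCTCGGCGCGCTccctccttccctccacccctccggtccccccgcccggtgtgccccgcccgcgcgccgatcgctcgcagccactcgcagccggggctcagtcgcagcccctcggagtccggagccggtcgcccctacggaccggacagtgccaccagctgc
All 300 bases of the Foxj3 promoter lay under CHD7, and in Foxp4 the 150 bases farthest upstream did, while H3K27ac covered the 108 bases at the other end.

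**Figure D3:**
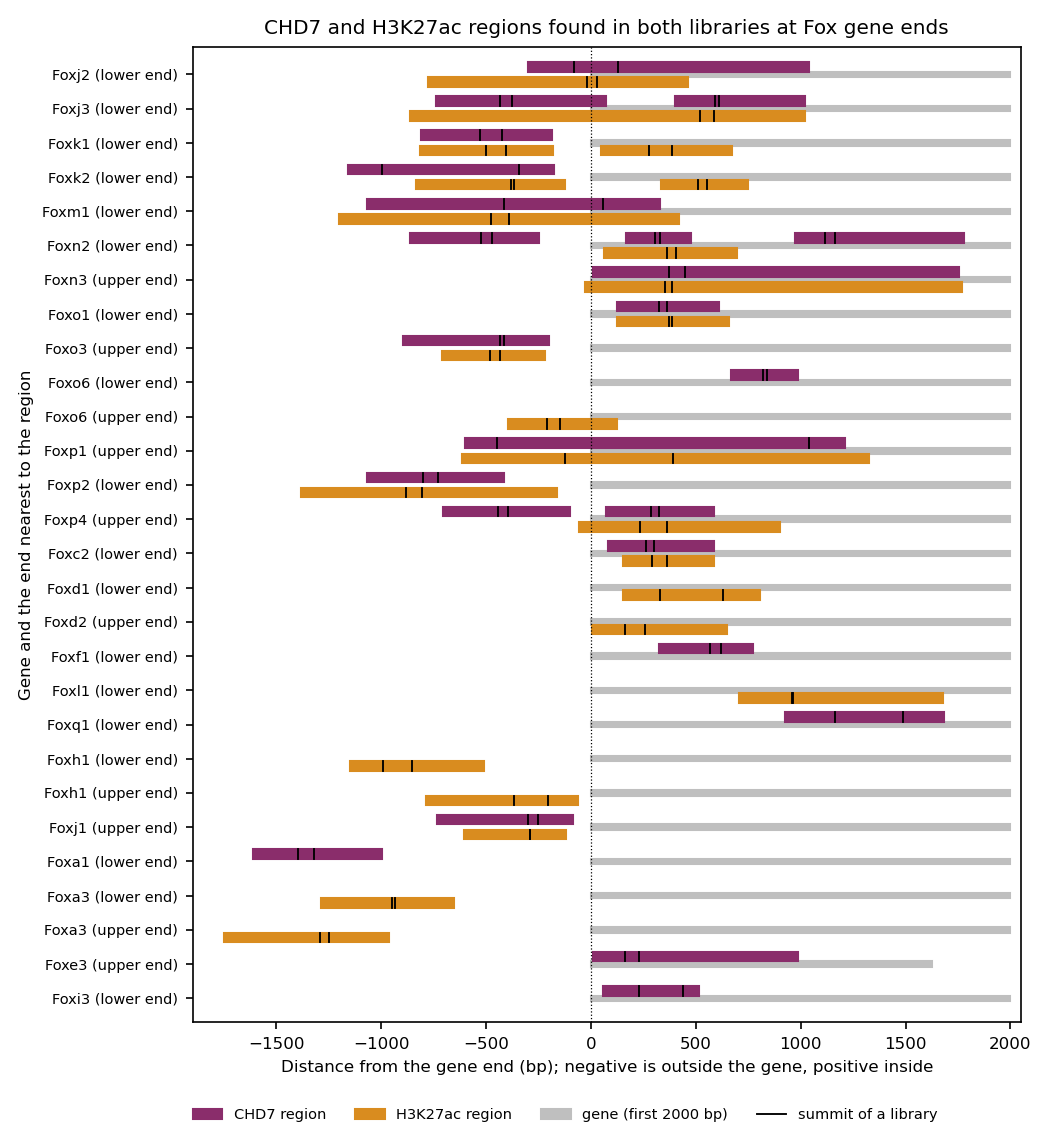
Position of each CHD7 and H3K27ac region found in both libraries at a Fox gene end, in bp from the end nearest to it (0; positive is inside the gene, and upper or lower names the end of higher or lower coordinate). Black ticks are the summits of both libraries; the CHD7 and H3K27ac regions of Foxo6 lie at opposite ends, and those of Foxp4 lie partly apart.

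In Foxk1, Foxk2 and Foxj2 the strongest H3K27ac region stood high in its own lists. Foxk1, a factor of muscle progenitors, had a CHD7 fold of 3.98 and 4.03 just outside its lower end (chr5:142400686-142401311, mean 4.01 ± 0.0411). H3K27ac overlapped this region (3.56 and 2.69), and a second, stronger H3K27ac region inside the gene had 5.38 and 5.15 and no CHD7. Foxk2 had 2.49 and 3.07 for CHD7 and 5.67 and 5.65 for H3K27ac. Foxj2 had 3.28 and 3.36 for CHD7 (mean 3.32 ± 0.0575) and 6.14 and 6.25 for H3K27ac (mean 6.20 ± 0.0828). These H3K27ac folds stood at percentiles 91.6 and 92.6 of libraries 1 and 2 for Foxj2, 87.3 and 87.5 for Foxk2 and 84.0 and 81.1 for Foxk1. The CHD7 fold of Foxk2 stood at percentiles 10.8 and 39.2 of its libraries 1 and 2, and that of Foxj2 at 54.0 and 55.3.

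The Foxn genes with marks were Foxn2 and Foxn3, a checkpoint-linked repressor, while Foxn1 and Foxn4 had neither mark. Foxn2 had 3 CHD7 regions, with folds of 4.20 and 3.098, 3.21 and 2.90, and 3.15 and 2.99. Its H3K27ac region, at chr17:88440764-88441402, overlapped the second of these and had the highest H3K27ac fold at a Fox gene end, 6.31 and 6.78 (mean 6.55 ± 0.334). Foxn3 had a CHD7 fold of 2.92 and 4.09 (mean 3.51 ± 0.828), which differed more between libraries than in the other leading members. Its H3K27ac fold was 3.79 and 4.47. The CHD7 and H3K27ac regions lie at the outer 5′ end, 111836 and 111822 bp from the nearest listed start of Foxn3. The lncRNA Gm26839 also has an end within 1 kb of them. Foxm1, the driver of mitotic genes, had 2.39 and 3.21 for CHD7 and 5.08 and 4.38 for H3K27ac in regions that cross its lower end and lie within 1 kb of an end of Rhno1.

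Foxo1, Foxo3 and Foxo6 carried both marks. Among all genes called, their best CHD7 folds stood at percentiles 31.3, 17.1 and 18.1 and their best H3K27ac folds at 14.1, 6.38 and 3.88. Foxo1 had 3.22 and 3.58 for CHD7 (mean 3.40 ± 0.256) and 3.103 and 4.11 for H3K27ac, with the regions sharing almost the same limits, chr3:52268461-52268946 and chr3:52268460-52268993. Foxo3 had 3.51 and 2.72 for CHD7 and 3.71 and 2.72 for H3K27ac. Foxo6 was the 1 broad member whose marks did not overlap: CHD7 stood inside its lower end (3.32 and 2.96, mean 3.14 ± 0.256) and H3K27ac at its upper end (3.12 and 2.90).

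Foxp1 and Foxp2, corepressor-binding factors of heart, blood and brain, had low CHD7 folds. Foxp1 had 2.75 and 2.22 for CHD7 and 3.83 and 3.57 for H3K27ac across its upper end. Foxp2 had 2.498 and 2.27 for CHD7 and 3.35 and 2.83 for H3K27ac. Among genes with CHD7 at an end, Foxp2 and Foxp1 ranked at percentiles 1.02 and 1.80.

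In the crest, arch and outflow group, Foxc2 was the 1 member with both marks. Its CHD7 region, chr8:121116252-121116758, had a fold of 2.74 and 2.79 (mean 2.77 ± 0.0346), and an H3K27ac region nested in it had 2.75 and 3.05 (mean 2.90 ± 0.215). Both folds were among the lower ones of the family. Foxf1, a hedgehog-responsive factor of splanchnic mesenchyme, had CHD7 without H3K27ac, with 2.43 and 1.87 at chr8:121084709-121085156. Foxq1, which acts in hair and mucous epithelium, also had CHD7 alone, 2.49 and 2.94. In contrast, Foxd1, a factor of kidney stroma, had H3K27ac alone with 2.86 and 3.46, as did Foxd2 with 3.37 and 3.62 and Foxl1 with 3.44 and 3.42. The region of Foxd2 also lies within 1 kb of an end of the lncRNA Foxd2os.

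Foxc1, Foxd3, Foxf2, Foxl2 and Foxs1 had neither mark in both libraries of an antibody. The nearest CHD7 region to Foxc1 was 101 kb from it and the nearest H3K27ac region 198 kb. For Foxd3 these distances were 1.93 kb and 56.3 kb, so CHD7 lay just past the limit with no acetylation near. Foxf2 had CHD7 peaks in both libraries that did not overlap each other (3.03 and 2.29), and H3K27ac in library 2 alone (3.35). The Foxd3 and Foxc1 promoters are printed, as above, to show starts with 0 bases under CHD7. Foxd3 lies at chr4:99656049-99656348 and Foxc1 at chr13:31806396-31806695, both on the plus strand.
Foxd3: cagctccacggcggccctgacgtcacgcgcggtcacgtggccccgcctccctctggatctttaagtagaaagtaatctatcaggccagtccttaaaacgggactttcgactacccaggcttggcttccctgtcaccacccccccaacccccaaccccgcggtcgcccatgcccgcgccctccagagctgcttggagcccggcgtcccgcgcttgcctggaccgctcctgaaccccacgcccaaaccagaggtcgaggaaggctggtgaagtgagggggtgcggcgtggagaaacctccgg
Foxc1: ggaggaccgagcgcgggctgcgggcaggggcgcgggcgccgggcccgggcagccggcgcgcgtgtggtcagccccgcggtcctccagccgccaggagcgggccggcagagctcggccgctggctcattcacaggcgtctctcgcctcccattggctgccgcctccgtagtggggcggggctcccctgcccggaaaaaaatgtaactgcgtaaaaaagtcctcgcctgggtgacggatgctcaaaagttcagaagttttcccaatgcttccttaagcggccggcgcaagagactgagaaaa
They are nonetheless rich in G and C, 65.7% for Foxd3 and 67.3% for Foxc1, against a median of 57.0% over all promoters.

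Neighbouring Fox genes differed in their marks. On chromosome 8, Foxf1, Foxc2 and Foxl1 stand 28.0 kb and 8.79 kb apart and had CHD7 alone, both marks and H3K27ac alone. On chromosome 13, Foxq1 had CHD7 alone, Foxf2, 64.8 kb away, and Foxc1, 175 kb further on, had neither. On chromosome 4, Foxd2 had H3K27ac alone and Foxe3, 15.5 kb away, CHD7 alone.

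Among genes of endoderm, ectoderm and placode, CHD7 alone stood at Foxe3, Foxi3 and Foxa1. Foxe3, a lens factor, had 3.05 and 3.49 (mean 3.27 ± 0.306) in a region of 977 bp inside its 5′ end. Foxi3, of the placodes and pharyngeal ectoderm, had 2.61 and 2.71, and Foxa1, of endoderm, had 2.33 and 2.26 in a region whose distance of 997 bp is just inside the limit. Foxa3, of liver and gut, was the 1 member with H3K27ac alone: 4.83 and 5.32 near its 5′ end, in a region 965 bp away that overlaps Sympk, and 3.26 and 6.14 beyond its other end (mean 4.70 ± 2.04). Foxa2, Foxe1, Foxi1, Foxi2 and Foxn1 had neither. Foxj1, the master factor of motile cilia, had CHD7 folds of 3.80 and 3.33 (mean 3.57 ± 0.331) and H3K27ac folds of 2.86 and 3.08 between its end and that of Rnf157. Foxh1, the partner of Smads in nodal signalling, had H3K27ac alone (4.07 and 3.52, and 3.15 and 2.73) in regions that also lie within 1 kb of an end of Kifc2 or Ppp1r16a. The neural genes Foxb1, Foxb2, Foxd4 and Foxn4, and the germ line gene Foxr1, had neither.

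Several genes without a shared region had a peak in 1 library. Among them, CHD7 was listed in library 1 alone at Foxa3 (4.07), Foxi2 (2.85) and Foxd4 (2.48), and in library 2 alone at Foxh1 (4.25) and Foxl2 (2.33). Foxd2 had CHD7 peaks in both libraries (2.05 and 1.97) that did not overlap. Just past 1 kb stood CHD7 regions of Foxo3 at 1196 bp and Foxo1 at 1.43 kb, both of which were called through a closer region, and of Foxd3 at 1.93 kb, while H3K27ac regions lay at 1.15 kb from Foxo3 and 2.51 kb from Foxp2.

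Folds at Fox gene ends were lower than at gene ends in general, and near the middle of each whole list. The whole lists also hold peaks found in 1 library alone. The 24 CHD7 regions had a median fold of 3.09 (range 2.15 to 4.21), against 3.58 over 10084 CHD7 regions at gene ends and 3.19 and 3.23 over all peaks of CHD7 libraries 1 and 2. The 24 H3K27ac regions had 3.65 (2.90 to 6.55), against 4.47 over 10972 at gene ends and 3.58 and 3.67 over all peaks of H3K27ac libraries 1 and 2. Ranked by its best region among all genes called, 3 of 20 members lay above the median for CHD7 (Foxj3 at percentile 71.2, Foxp4 at 67.0 and Foxk1 at 63.2). For H3K27ac 5 of 20 did, led by Foxn2 at 88.7 and Foxj2 at 83.6. The median percentile of the called members was 17.6 for CHD7 and 17.2 for H3K27ac. Lower folds were not particular to Fox genes. Median best CHD7 folds of called genes were 3.13 for Fox, 2.82 for Sox and 3.41 for T-box, against 3.74 for all. For H3K27ac these medians were 3.75, 2.82 and 3.08, against 4.81. The libraries differed on these regions about as much as elsewhere. The SD of the log2 ratio of library 1 over 2 was 0.25 for CHD7 at Fox gene ends and 0.28 over all regions, and 0.28 and 0.27 for H3K27ac.

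The marks overlapped at Fox gene ends in a smaller share of regions than at gene ends in general. Of 24 CHD7 regions 15 overlapped H3K27ac (62.5%), against 80.4% of all CHD7 regions at gene ends, and of 24 H3K27ac regions 14 overlapped CHD7 (58.3%), against 72.8%. No test of this difference was made. Where they overlapped, summits lay a median of 43.0 bp apart over 15 pairs (7.5 to 956 bp), against 65.0 bp over 8287 pairs of all genes. Across the 15 members with both marks the best CHD7 and H3K27ac folds had a Spearman rank correlation of 0.354, against 0.445 over 8462 genes; these points share libraries and base composition, and the values are descriptions. At the 12 regions of each mark at a 5′ end with a known strand, the mean summit lay inside the gene for 8 CHD7 and 9 H3K27ac regions, with medians of 246 and 254 bp into the gene.

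RefSeq promoters of 300 bases were matched for 26 of 41 Fox genes, 30 promoters in all. Fox promoters had a median of 63.5% G and C and 22.5 CpG, against 57.0% and 14 over 20085 promoters of all genes, and an observed over expected CpG ratio of 0.698, against 0.586. CHD7 overlapped 7 of 30 (23.3%), against 32.4% of all promoters, and H3K27ac 7 (23.3%), against 40.1%. Fox promoters of genes with neither mark were mostly CpG-rich. Their median CpG ratio was 0.674 over 14 promoters of 12 genes, against 0.245 over all 8873 promoters of that class. Foxi2, Foxi1 and Foxn1 went the other way, with ratios of 0.198, 0.232 and 0.272. The median G and C share of the 14 was 61.5%. Promoters of members with both marks had a ratio of 0.887, against 0.794. The forkhead core GTAAACA, searched on both strands, was found in 1 Fox promoter (3.33%), that of Foxa1, against 3.04% of all. The NF-Y core CCAAT was in 14 (46.7%), against 38.1%, and the E-box CACGTG in 1 (3.33%), that of Foxd3, against 7.89%.

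Distal regions, farther than 1 kb from every protein-coding gene end, were placed with the gene whose end was nearest within 100 kb. This names a position and not a target. A Fox gene was nearest to 34 CHD7 regions and 27 H3K27ac regions. They stood at 17 members for CHD7 (41.5%), against 23.1% of all genes, and at 16 for H3K27ac (39.0%), against 18.0%. Fox genes also had more sequence nearest to them, a median of 106 kb, against 44.3 kb. Per megabase of it there were 7.35 CHD7 and 5.84 H3K27ac regions, against 4.91 and 3.62 for all genes. These numbers per megabase were not computed under other settings. Of the 34 CHD7 regions 14 overlapped H3K27ac (41.2%), against 43.8% of all 7592 such distal CHD7 regions, and of the 27 H3K27ac regions 14 overlapped CHD7 (51.9%), against 58.0% of all 5600. The median fold of the 34 CHD7 regions was 3.02, against 3.31 over all 7592. For the 27 H3K27ac regions the median fold was 3.06, against 3.46 over all 5600.

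**Figure D4:**
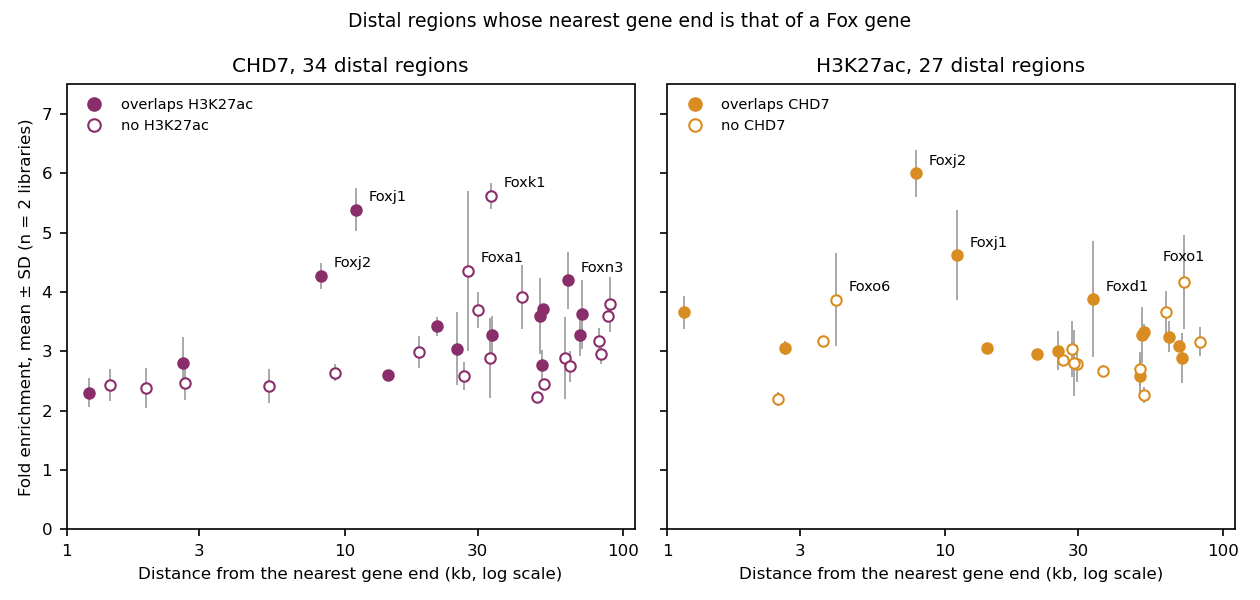
Fold enrichment (mean ± SD of 2 libraries) of each distal region against its distance from the nearest Fox gene end (kb, log scale), CHD7 at left and H3K27ac at right; filled points overlap the other mark and the 5 highest of each are named. The highest CHD7 point, near Foxk1, does not overlap H3K27ac, and the highest H3K27ac point, near Foxj2, overlaps CHD7.

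The strongest distal CHD7 region stood 33.6 kb from Foxk1, at chr5:142367402-142367919, with 5.78 and 5.47 (percentiles 97.6 and 96.5 of the libraries), by an end of the lncRNA Gm31068 and with no H3K27ac. The next, 11.0 kb from Foxj1 at chr11:116319052-116319687, had 5.65 and 5.13 and overlapped H3K27ac of 4.09 and 5.16. A region 27.7 kb from Foxa1, inside Ttc6, had 5.32 and 3.40 (mean 4.36 ± 1.35) and no H3K27ac. The region 8.24 kb from Foxj2 had 4.43 and 4.12. In mean fold these 4 exceeded each CHD7 region at a Fox gene end. The one by Foxj2 overlapped the strongest distal H3K27ac region, of 6.28 and 5.71. CHD7 regions of 4.54 and 3.86 (63.6 kb from Foxn3), 3.75 and 3.67 (51.4 kb from Foxi3) and 3.21 and 4.04 (71.3 kb from Foxo1) overlapped H3K27ac. Those of 4.30 and 3.53 (43.2 kb from Foxb1), 4.12 and 3.47 (89.7 kb from Foxl1) and 3.92 and 3.49 (inside Foxn3) did not. Foxb1 thus had distal CHD7 although neither mark stood at its ends.

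Other distal H3K27ac regions of high fold lay 72.0 kb from Foxo1 (3.61 and 4.73, without CHD7), 33.9 kb from Foxd1 (3.19 and 4.57, with CHD7) and 4.06 kb inside Foxo6 (3.31 and 4.43, without). They also lay 1.15 kb from Foxo3 (3.85 and 3.46, with CHD7) and 62.4 kb from Foxd2 (3.91 and 3.40, without). Foxi3, Foxo1 and Foxn3 had further ones of 3.42 and 3.23, 3.60 and 2.94, and 3.43 and 3.06, each with CHD7. In the crest group, distal CHD7 regions of Foxl1 at 50.1 kb (3.14 and 4.05) and of Foxd1 at 33.8 kb (3.05 and 3.51) overlapped H3K27ac. Those of Foxd3 at 81.7 kb (3.01 and 3.33) and 1.93 kb (2.15 and 2.62), Foxd2 at 83.6 kb (2.84 and 3.08), Foxl1 at 89.7 kb, Foxf2 at 51.8 kb (2.41 and 2.48) and Foxd1 at 9.23 kb (2.74 and 2.54) did not.

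**Figure D5:**
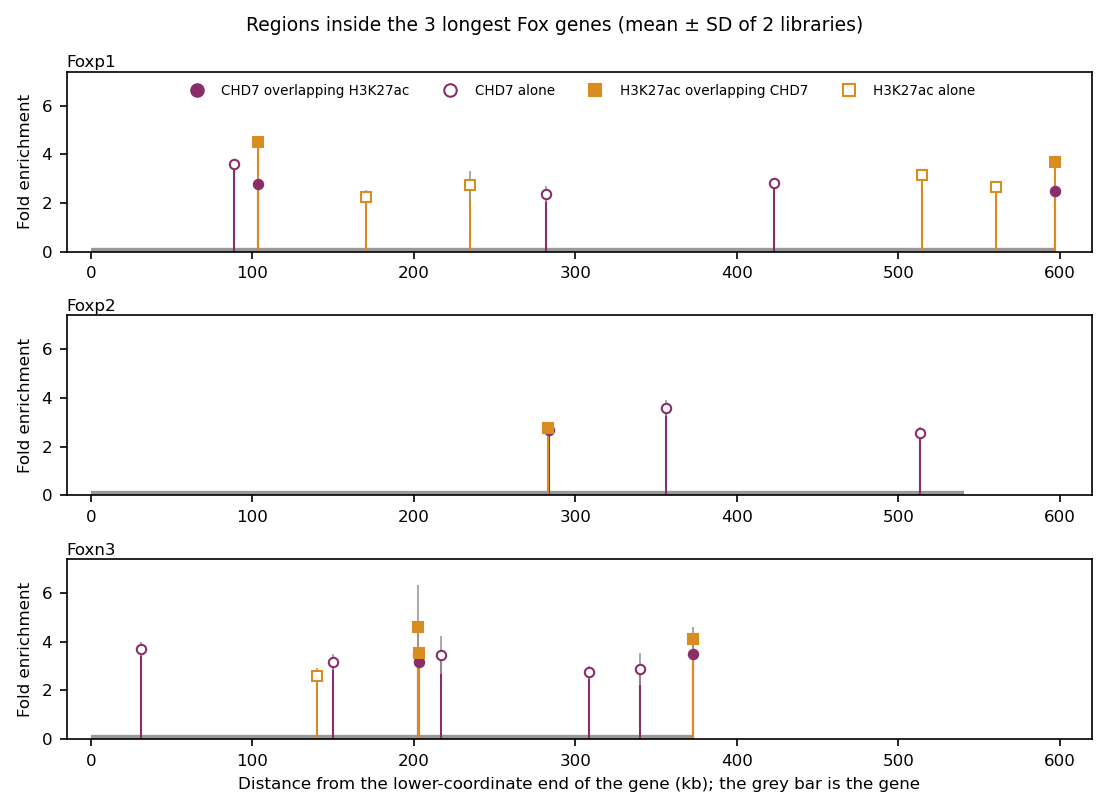
CHD7 (circles) and H3K27ac (squares) regions found in both libraries inside the 3 longest Fox genes, by distance from the end of lower coordinate (kb), with mean fold ± SD of 2 libraries; filled symbols overlap the other mark, and where both overlap they lie on the same position. In Foxp1 the highest region is the H3K27ac one at an internal start.

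The 3 longest members are longer than the 100 kb reach. In Foxp1 and Foxp2 some regions deep inside the gene fall outside the limit of 100 kb. In Foxn3 no region does, but several are nearest to an end of the nested gene Gm51999 and were not placed with Foxn3. Foxp1, of 597 kb, held 5 CHD7 regions, 2 of them with H3K27ac, and 6 H3K27ac regions. RefSeq lists 1 start of Foxp1 just inside its outer end and 2 starts deeper in the gene. The promoter near the outer end, chr6:99520944-99521243, had 0 bases under either mark. That of 1 deeper start, chr6:99266466-99266765, also had 0. H3K27ac stood beside the other deeper start at chr6:99028440-99029269 with 4.51 and 4.48 (mean 4.50 ± 0.0202), above the 3.83 and 3.57 at the outer end. CHD7 overlapped it with 2.72 and 2.85. The promoter of this last start, chr6:99028249-99028548 on the minus strand, is printed with the bases under CHD7 in capitals.
Foxp1: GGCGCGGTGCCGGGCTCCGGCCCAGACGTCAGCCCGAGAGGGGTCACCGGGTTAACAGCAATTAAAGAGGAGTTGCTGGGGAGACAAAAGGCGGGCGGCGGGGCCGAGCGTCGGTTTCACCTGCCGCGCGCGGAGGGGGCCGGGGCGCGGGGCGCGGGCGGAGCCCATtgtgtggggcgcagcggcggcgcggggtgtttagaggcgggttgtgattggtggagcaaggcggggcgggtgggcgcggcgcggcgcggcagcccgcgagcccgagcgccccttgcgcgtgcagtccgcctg
CHD7 covered its 168 bases farthest upstream and H3K27ac 109, and it holds CCAAT on the opposite strand at position -36 from the start. Foxp2, of 541 kb, held 3 CHD7 regions and 1 H3K27ac region (2.78 and 2.76), which overlapped CHD7. Foxn3, of 374 kb, held 8 CHD7 and 4 H3K27ac regions, 3 of each overlapping the other mark. Its highest H3K27ac fold, 5.82 and 3.39 at chr12:99392287-99392904, lies by an end of the nested gene Gm51999 and differed most between libraries.

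Genes that act upstream, downstream or beside Fox factors mostly carried both marks. Of 20 genes of the insulin and AKT pathway that governs Foxo factors, 13 had CHD7, 18 had H3K27ac and 13 had both. Mtor, the growth kinase, had 5.70 and 4.60 for CHD7 and 7.37 and 7.16 for H3K27ac, whereas Sgk1 had neither mark. Of 16 Foxo targets 10 had CHD7, 13 had H3K27ac and 9 had both, among them Cat, the catalase gene (CHD7 5.83 and 5.81), and Trim63 and Bcl2l11 had neither. Of 14 mitotic genes driven by Foxm1 12 had CHD7, 12 had H3K27ac and 11 had both, with Kif20a, a kinesin of cytokinesis, at 6.14 and 6.40 for CHD7 and Skp2 at neither. Of 14 partners of Foxp and Foxk factors 12 had CHD7, 13 had H3K27ac and 12 had both. Hdac2, a histone deacetylase, had 6.66 and 5.72 for CHD7 and 6.29 and 5.64 for H3K27ac, and Sin3a had neither. Of 13 hedgehog genes 10 had both marks, including the receptor Smo (CHD7 3.39 and 4.72) and the effector Gli1 (2.90 and 3.101), while the ligands Shh and Ihh and the antagonist Hhip had neither. Mtor, Cat, Kif20a, Hdac2 and Smo had the highest mean CHD7 fold of their lists, so their values do not stand for the other genes. The lists were chosen with earlier results of these data known, and their counts stand beside the 46.2%, 49.3% and 41.2% of all genes.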

How the data were processed

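ChIP-seq peak lists of 2 CHD7, 2 H3K27ac and 2 input libraries were used, grouped by the titles in the labels. Per the submitters' processing notes, MACS2 2.1.2, the aligner Bowtie2 2.3.3.1, Picard and bcl2fastq 2.18.0.12 were used with build mm10. The sources used here do not say if MACS2 was given input as its control. Each deposited list was called by the authors on 1 library. For every peak the authors deposited a summit fold, which is a ratio of enrichment, its p-value and q-value as −log10, and an integer score from the authors' peak caller. Without read counts, depth and counting error are unknown.

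Where several rows gave 1 interval, a single peak was kept with the maximum of fold and of q, on chromosomes 1 to 19. A region is the merged extent of overlapping peaks (1 bp or more) of both libraries. Gene limits came from a RefSeq table of the same build without strand or exons, so either gene end was used within 1 kb, and 105 of 20665 genes starting below position 3000000 were left out. Strand and promoters came from RefSeq for 26 members. Counts stand beside the same share over all genes, with no test. Values are named for the 10 members of highest CHD7 fold, members with 1 mark, Foxc1, Foxc2, Foxd3, Foxf1 and Foxf2, and the 10 highest distal regions of each mark; values of other members were chosen after they were seen. The counts include 1 Fox gene and 1 pathway gene that are not reported here by name. The interval code was tested on simulated data. Python 3.11.15, pandas 2.3.3, numpy 2.4.6, scipy 1.17.1 and matplotlib 3.10.9 were used. The members and lists were chosen with earlier results of these data known.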

Additional observations from a re-analysis of the deposited data

Results flagged for a closer look

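The rule by symbol covers chromosomes 1 to 19, and 3 further Fox genes lie on the X chromosome, outside the counts above. Foxo4, a member of the insulin-regulated Foxo subfamily, had H3K27ac at a gene end in both libraries, with folds of 3.90 and 3.16 (mean 3.53), and no input peak there. CHD7 was listed at Foxo4 in library 1 alone, with 3.00. Foxp3 and Foxr2 had no peak of either mark at their ends. The H3K27ac at Foxo4 was picked out because it is a signal in data that the counts leave out.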

How the results depend on the processing

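Of 75 recomputed counts 49 stayed within 1.5 times the value reported and 26 did not. Some of the 49 could not move, so their number overstates stability. No input peak lay near a Fox gene, so leaving out peaks that overlap input changed no count. Leaving out a library of 1 antibody cannot change the counts of the other antibody alone. With −log10 q of at least 10, 1 Fox gene had CHD7, 10 had H3K27ac and 1 had both at a gene end. The shares of all genes were 11.2%, 29.6% and 9.03%. Distal counts were 4 CHD7, 2 H3K27ac and 1 CHD7 region with H3K27ac. With the 10000 peaks of lowest q the gene-end counts were 4, 10 and 3, against 21.5%, 33.3% and 17.5% of all genes. The distal counts were 8, 2 and 1. Regions found in either library gave 89, 60 and 36 distal regions, and a reach of 50 kb gave 21, 16 and 8. Within 1 kb of a listed transcription start, which 26 members have, counts were 9, 10 and 7 (34.6%, 38.5% and 26.9%). All genes with such a start had 47.6%, 51.5% and 43.0%, so the Fox shares were lower there. Without regions near another gene's end, a setting added after the data were seen, 13 genes had H3K27ac (31.7%), against 29.7% of all genes. Leaving out 1 library in turn, so that the other list stands alone and the rule is looser, gave 20 to 26 genes with CHD7, 20 to 21 with H3K27ac and 15 to 17 with both. Distal counts then ran from 34 to 71 for CHD7 (57 without CHD7 replicate 1, 71 without replicate 2), from 27 to 47 for H3K27ac (42 without H3K27ac replicate 1, 47 without replicate 2) and from 17 to 21 for CHD7 with H3K27ac. Peaks that overlap no input peak, a stricter overlap, other windows and a reach of 200 kb left each count within 1.5 times. For all genes the distal counts were not recomputed under any of these settings. Whether the higher Fox number per megabase holds under them was therefore not tested. No paired analysis was possible because the files are peak lists called per library and no fit was made across libraries. Unknown depth limits every absent peak: a gene without a region may lie below the calling threshold.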
